A study of Mus musculus with 11 samples.

Results

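The 9 immediate early genes *Fos*, *Fosb*, *Jun*, *Junb*, *Egr1*, *Nr4a1*, *Ier2*, *Btg2* and *Dusp1* were taken by symbol from a count table of 55401 genes, and each matched 1 row and passed the filter on low counts. They were read in 11 poly(A) RNA-seq libraries of islet cells sorted by FACS from 4 male mice of the strain C57BL6/J. All mice were fed chow, were 10 weeks old by the labels, and carried RIP-Cre, which drives Cre from the rat insulin promoter, STOP-tdTomato, which marks cells with Cre activity, and Nnat-EGFP, a reporter of the promoter of the imprinted gene *Nnat*. By their labels, NNAT-positive beta cells gave 4 libraries, NNAT-negative beta cells another 4, and non-beta cells, the remaining cells of the islet preparation, 3. Libraries with the same number came from the same mouse, so the mouse also stands for its islet preparation, digestion and sort, and mouse 4 had no non-beta library.

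Immediate early genes are switched on within minutes of a stimulus, without new protein synthesis, when kinases such as ERK and PKA activate factors already bound at their promoters. Their products include subunits of the transcription factor AP-1, other DNA-binding proteins, and inhibitors that end the response. In islets they respond to glucose, calcium and cyclic AMP, and digestion of a tissue into single cells is known to raise them. Here islets were released with Liberase TM, hand-picked and dispersed with Accutase before the sort. Since all 11 libraries were made from dispersed cells, a level before dispersal was not measured.

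Total counts per library were between 30420352 and 43238376, so a floor of 3 counts was at most 0.102 CPM (counts scaled to a common library size). This floor covers counting error only, and the members lay far above it in every library. The 7 beta cell markers were higher in both beta cell fractions than in non-beta cells. Lower in both were the 5 alpha cell, 3 delta cell, 2 pancreatic polypeptide, 8 acinar, 6 endothelial, 8 leukocyte and 5 stromal markers. Of the 4 ductal markers 3 were lower in both. In mice 1 to 3 the ductal sum was 56.9% to 76.0% of the mouse's own non-beta level in libraries labelled NNAT-positive. It was 54.1% to 97.4% in those labelled NNAT-negative. *Nnat* itself went against the labels. In 4 of 4 mice the library that the labels call NNAT-positive held less of it than the NNAT-negative one, at 0.574 to 0.693 times its level. The fractions are therefore called by label, as positive-labelled and negative-labelled libraries.

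Promoters of many immediate early genes are read by factors of the CREB and ATF families, which bind the cyclic AMP response element. RefSeq promoters of GRCm38.p6, from 250 bases before to 50 after the transcription start, were held for 7 of the 9 members, and *Egr1* and *Ier2* were not among them. The core element TGACG, sought on both strands, was found in 6 of the 7, against 20.8% of all 32851 promoters. *Jun* had none, *Fosb* and *Junb* had 1 each, *Fos* and *Btg2* had 2, *Dusp1* had 3 and *Nr4a1* had 4, and 0.231% of all promoters had at least 4. The full element TGACGTCA, which contains the core element on each strand and so counts for 2 of them, lay in the promoters of *Btg2* and *Dusp1* and in 1.79% of all promoters. The AP-1 element TGANTCA and the CArG box, the site of serum response factor, were found in 0 of the 7 windows, and in 7.81% and 1.63% of all. Sites outside the windows were not sought, so these counts do not show that a gene lacks an element. CCAAT was in 3 of the 7 and 37.4% of all, and TATAA in 2 of the 7 and 24.9% of all. The 4 promoters with at least 2 core elements are shown with them in capitals, 5′ to 3′ along the gene, since they held the most of these elements among the members.
Fos promoter, chr12:85473640-85473939, plus strand: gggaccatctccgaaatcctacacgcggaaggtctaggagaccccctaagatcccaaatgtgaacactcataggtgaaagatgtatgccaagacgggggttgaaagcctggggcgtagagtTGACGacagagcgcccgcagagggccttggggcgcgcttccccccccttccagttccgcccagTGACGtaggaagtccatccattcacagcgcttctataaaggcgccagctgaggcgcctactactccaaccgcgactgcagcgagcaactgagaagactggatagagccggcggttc
Dusp1 promoter, chr17:26508423-26508722, minus strand: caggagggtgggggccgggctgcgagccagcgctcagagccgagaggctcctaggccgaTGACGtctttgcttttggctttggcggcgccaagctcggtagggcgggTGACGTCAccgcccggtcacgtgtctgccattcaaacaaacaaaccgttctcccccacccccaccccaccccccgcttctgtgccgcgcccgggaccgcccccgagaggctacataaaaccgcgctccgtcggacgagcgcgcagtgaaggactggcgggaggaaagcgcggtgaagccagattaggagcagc
Nr4a1 promoter, chr15:101266596-101266895, plus strand: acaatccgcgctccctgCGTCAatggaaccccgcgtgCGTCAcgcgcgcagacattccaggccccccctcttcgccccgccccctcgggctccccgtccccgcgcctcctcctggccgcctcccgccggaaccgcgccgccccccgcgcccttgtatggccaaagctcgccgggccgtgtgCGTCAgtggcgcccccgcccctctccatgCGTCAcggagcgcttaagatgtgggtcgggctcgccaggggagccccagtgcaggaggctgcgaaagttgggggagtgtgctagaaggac
Btg2 promoter, chr1:134079106-134079405, minus strand: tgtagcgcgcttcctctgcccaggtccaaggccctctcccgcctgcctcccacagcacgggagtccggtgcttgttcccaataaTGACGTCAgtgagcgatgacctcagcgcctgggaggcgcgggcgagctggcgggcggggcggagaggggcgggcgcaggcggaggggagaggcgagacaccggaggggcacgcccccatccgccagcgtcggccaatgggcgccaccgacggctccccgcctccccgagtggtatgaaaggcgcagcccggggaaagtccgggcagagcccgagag

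In *Nr4a1* the 4 core elements were on the opposite strand and read CGTCA, and in *Fos* both were on the strand of the gene. A match of letters is a description of the window and not evidence of binding.

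In mice 1 to 3 each member was higher in non-beta cells than in beta cells, and in mouse 4 each member was higher in each beta cell library than in that fraction of the other mice, by 1.60 (*Nr4a1*, negative-labelled) to 15.2 times (*Fosb*, negative-labelled) their highest value. The libraries of mouse 4 also stood apart in nuclear long RNAs and heat shock genes, and the negative-labelled library of mouse 2 in its shares of insulin and mitochondrial counts. The level of the members therefore followed the fraction in one set of libraries and the mouse in the other, and the values of each library are given for this reason before any test.

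*Fos*, which pairs with Jun proteins in AP-1, lies at chr12:85473890-85477273 on the plus strand (GRCm38, as are the coordinates that follow). Its level in non-beta cells was 1747, 1120 and 1263 CPM in mice 1, 2 and 3. In the positive-labelled libraries it was 231, 90.5, 113 and 966 CPM in mice 1 to 4, and in the negative-labelled ones 165, 26.3, 76.2 and 795 CPM. Both beta cell libraries of mouse 4 stood above the other beta cell libraries and below the non-beta libraries, with no overlap. *Fosb*, a close relative of *Fos* at chr7:19302696-19310051 on the minus strand, was at 436, 232 and 210 CPM in non-beta cells. It was at 35.0, 15.6, 17.9 and 429 CPM in the positive-labelled libraries and at 19.5, 9.10, 15.8 and 297 CPM in the negative-labelled ones. Here mouse 4 fell inside the non-beta range, at 18.8 and 20.1 times the mean of mice 1 to 3 in the respective fractions, the highest ratios of the 9 genes.

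*Jun*, at chr4:95049034-95052222 on the minus strand, encodes the central subunit of AP-1. It was at 895, 569 and 708 CPM in non-beta cells, at 115, 57.5, 66.9 and 780 CPM in the positive-labelled libraries, and at 84.0, 27.8, 47.7 and 648 CPM in the negative-labelled ones. Mouse 4 again lay within the non-beta range, at 9.78 and 12.2 times the mean of the other mice. *Junb*, an AP-1 subunit that can restrain Jun, lies at chr8:84974484-84978718 on the minus strand. It was at 503, 211 and 243 CPM in non-beta cells, at 36.7, 20.0, 27.0 and 153 CPM in the positive-labelled libraries, and at 35.2, 18.2, 21.7 and 137 CPM in the negative-labelled ones. Mouse 4 was at 5.49 and 5.46 times the mean of the other mice and stayed below all non-beta libraries. *Jun* shares 232 exonic bases with the antisense gene *Junos*, and *Junb* 173 with *Prdx2* on the opposite strand. The kit kept strand, but the strand setting of the counting is not given in the sources used here.

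*Egr1*, a zinc finger factor induced by ERK, lies at chr18:34859823-34864984 on the plus strand. It was at 895, 525 and 598 CPM in non-beta cells, at 113, 39.6, 60.6 and 565 CPM in the positive-labelled libraries, and at 79.0, 14.8, 45.5 and 434 CPM in the negative-labelled ones. The order of mice was 4, 1, 3, 2 in both beta cell fractions, and the positive-labelled library of mouse 4 reached the non-beta range. *Nr4a1*, an orphan nuclear receptor at chr15:101254269-101274795 on the plus strand, was at 249, 104 and 88.7 CPM in non-beta cells. It was at 30.7, 46.3, 29.4 and 118 CPM in the positive-labelled libraries and at 29.0, 62.1, 40.4 and 99.3 CPM in the negative-labelled ones. In this gene mouse 2, the lowest mouse for most members, was above mice 1 and 3 in both beta cell fractions, and mouse 4 was at 3.33 and 2.26 times the mean of mice 1 to 3.

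*Ier2*, an early response regulator at chr8:84661331-84662852 on the minus strand, was at 201, 113 and 129 CPM in non-beta cells. It was at 20.2, 12.4, 14.4 and 106 CPM in the positive-labelled libraries and at 17.0, 14.3, 12.3 and 83.4 CPM in the negative-labelled ones. Mouse 4 stayed below the lowest non-beta library in both. *Btg2*, an antiproliferative cofactor of mRNA deadenylation at chr1:134075170-134079120 on the minus strand, was at 500, 235 and 267 CPM in non-beta cells. It was at 134, 109, 142 and 371 CPM in the positive-labelled libraries and at 132, 106, 143 and 345 CPM in the negative-labelled ones. In mice 1 to 3 its level differed by at most 1.03 times between the beta cell fractions of a mouse, and mouse 4 fell inside the non-beta range. *Dusp1*, a phosphatase that switches off MAP kinases, spans chr17:26505590-26562128 on the minus strand. It was at 484, 277 and 314 CPM in non-beta cells, at 42.7, 17.4, 17.4 and 211 CPM in the positive-labelled libraries, and at 29.3, 9.10, 18.1 and 183 CPM in the negative-labelled ones. Mouse 4 was at 8.15 and 9.73 times the mean of the other mice, below the non-beta range. The span given for *Dusp1* is that of the gencode gene annotation, and its RefSeq promoter window shown above lies inside that span rather than at its start. The same holds for *Nr4a1*.

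**Figure D1:**
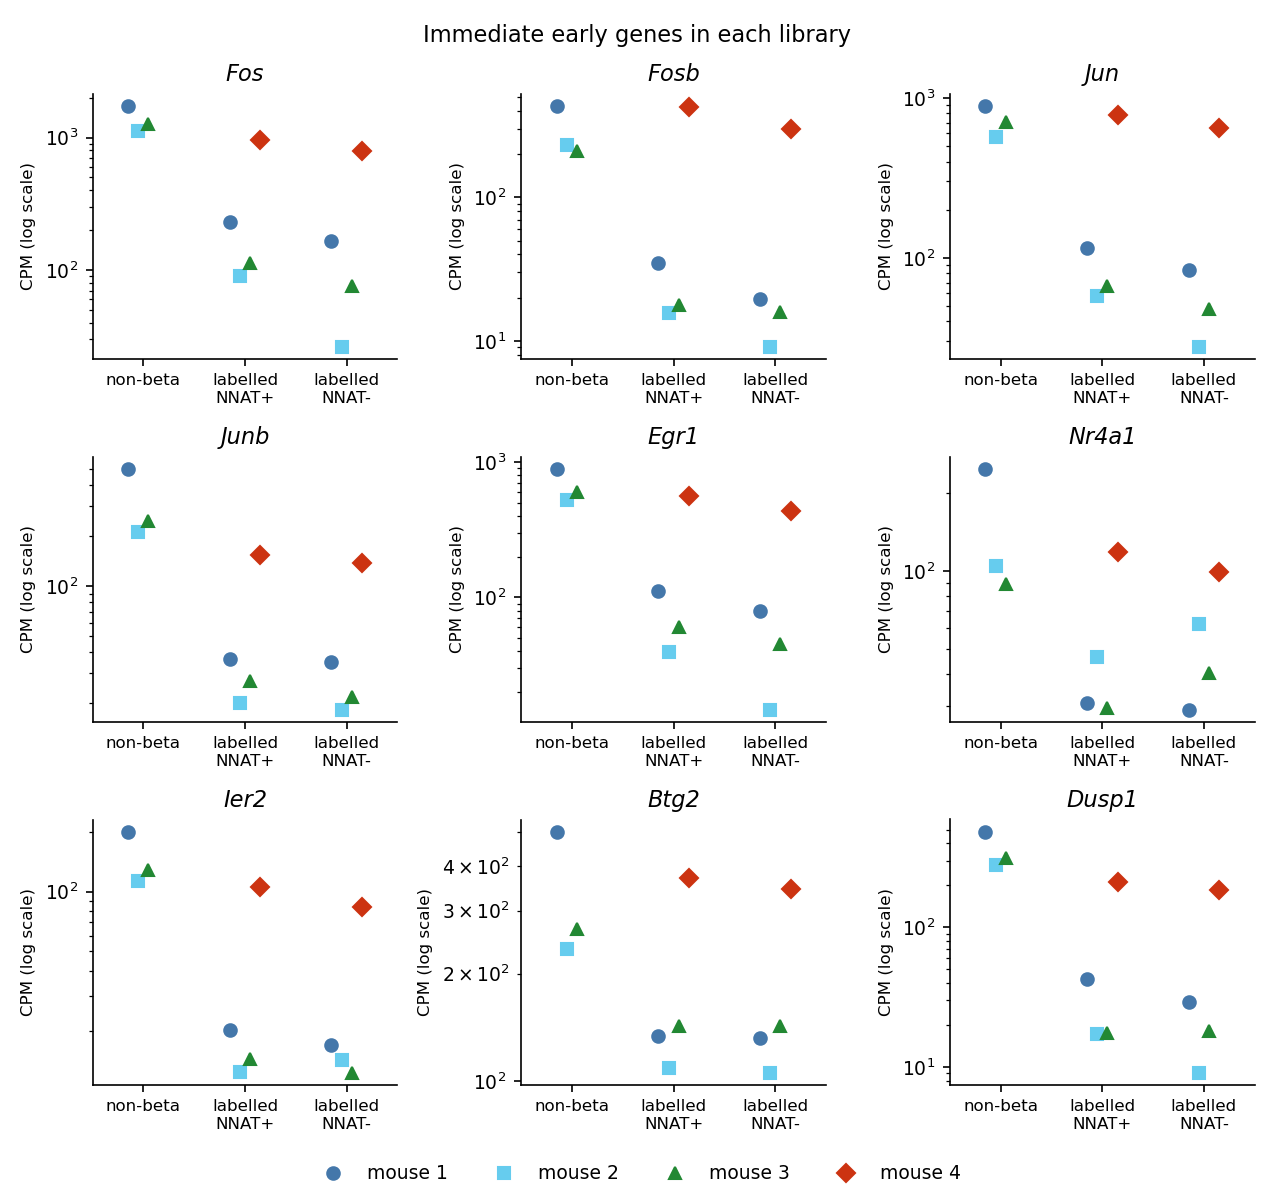
Level of each member in CPM on a log axis, with 1 panel per gene, the 3 sorted fractions on the x axis and 1 point per library, coloured by mouse. In every panel the beta cell libraries of mice 1 to 3 lie below the non-beta libraries, and those of mouse 4 lie above the beta cell libraries of the other mice.

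Per kilobase of exon, *Fos* was the highest member in non-beta cells at 585 ± 140 CPM per kb (SD, n = 3), followed by *Jun* at 227 ± 51.3 and *Egr1* at 150 ± 43.7. *Junb*, *Btg2*, *Dusp1* and *Ier2*, between 97.1 and 139 CPM per kb, did not differ from their neighbours by more than their SDs, which were between 30.6 and 69.6. *Fosb* and *Nr4a1* were the lowest at 46.9 ± 20.0 and 42.0 ± 25.1. In the positive-labelled libraries of mice 1 to 3 the order began with *Fos* at 61.5 ± 32.1 and *Btg2* at 46.8 ± 6.35 CPM per kb, which overlapped, followed by *Jun* at 25.0 ± 9.68. *Btg2* was the highest in the negative-labelled ones at 46.2 ± 6.94, with *Fos* at 37.9 ± 29.9 CPM per kb.

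The first comparison asked how far beta cells differed from the other islet cells. All 9 members were lower in the positive-labelled libraries than in non-beta cells, where 15.5% of the 17424 tested genes were lower, and all 9 were lower in the negative-labelled ones, where 17.1% were. A call needed an adjusted p under 0.01 and a change over 2-fold in edgeR's quasi-likelihood test with Benjamini-Hochberg adjustment and the mouse as a block. The median log2 fold change of the members was -3.42 and -3.83 in the respective fractions, against -0.06 and -0.13 over all tested genes. Both comparisons used the same 3 non-beta libraries, and mouse 4 entered them only through the difference between its beta cell fractions. In bulk RNA a smaller share of cells with a transcript and less of it per cell cannot be told apart.

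*Dusp1* had the largest difference in the positive-labelled libraries, 15.1-fold lower at a log2 fold change of -3.92 ± 0.18 (SE; edgeR quasi-likelihood test, Benjamini-Hochberg adjusted p = 1.60e-07). *Fosb*, *Junb* and *Fos* followed at -3.71 ± 0.16, -3.45 ± 0.11 and -3.45 ± 0.30, and *Egr1*, *Jun* and *Ier2* at -3.42 ± 0.25, -3.28 ± 0.17 and -3.19 ± 0.12. *Nr4a1* was 3.87-fold lower (-1.95 ± 0.37; edgeR quasi-likelihood test, adjusted p = 0.00147) and *Btg2* 2.49-fold lower (-1.32 ± 0.17, adjusted p = 0.000138). In the negative-labelled libraries the differences ran from *Dusp1* at -4.31 ± 0.19 and *Fosb* at -4.28 ± 0.16 to *Nr4a1* at -1.78 ± 0.36 and *Btg2* at -1.36 ± 0.17. *Fos* and *Egr1* were at -4.17 ± 0.32 and -4.05 ± 0.26 there. The 95% intervals of *Nr4a1* and *Btg2* did not overlap those of the other 7 members in either fraction.

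The ratios within a mouse varied as well. *Fos* was 7.57 to 12.4 times higher in non-beta cells than in the positive-labelled library of the same mouse and 10.6 to 42.5 times higher than in the negative-labelled library, the last value in mouse 2. *Ier2* kept to a narrow range, 8.96 to 9.95 and 7.94 to 11.8 times. *Nr4a1* went from 2.25 to 8.09 and from 1.68 to 8.57 times, with mouse 1 at the top of both ranges.

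This result held in the libraries of mice 1 to 3 and depended on the block when mouse 4 was included. In mice 1 to 3 all 9 members were lower in every beta cell library than in every non-beta library, as were 32.3% of tested genes for either fraction. With mouse 4, the members without overlap were 4 for the positive-labelled libraries, namely *Fos*, *Junb*, *Ier2* and *Dusp1*, where 28.8% of genes had none. With *Egr1* added they were 5 for the negative-labelled ones, where 28.9% had none. Without the mouse as a block, 0 of 9 members were called in either comparison, at adjusted p between 0.0228 and 0.503 in the same edgeR test, and with mouse 4 also left out all 9 were called in both. Non-beta cells are a mixture, in which alpha markers summed to 123224 to 171434 CPM, acinar markers to 14675 to 56587 CPM, delta markers to 6886 to 13480 CPM, stromal markers to 3184 to 7706 CPM, pancreatic polypeptide markers to 1857 to 3690 CPM, endothelial markers to 1637 to 1858 CPM, leukocyte markers to 1176 to 2608 CPM and ductal markers to 282 to 457 CPM. The part of each cell type in the members' levels there was not tested.

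**Figure D2:**
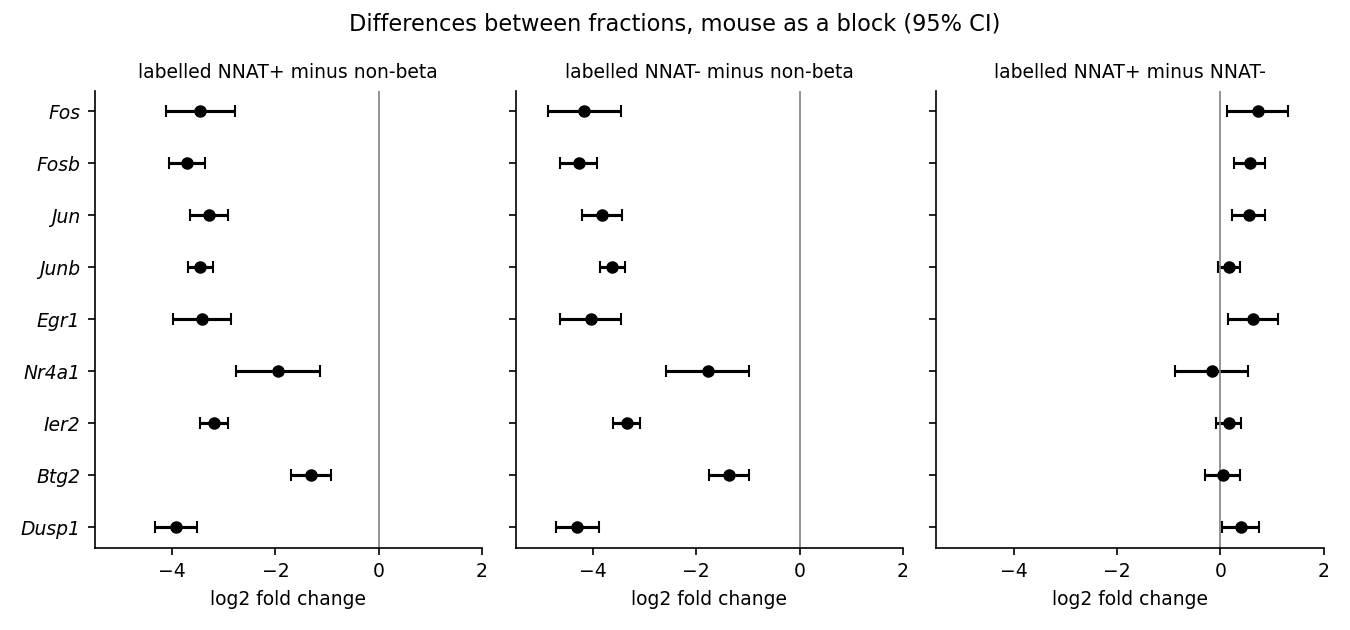
Log2 fold change of each member in 3 comparisons of fractions, with the point for the estimate of the fit with mouse as a block and the bar for its 95% confidence interval. All intervals against non-beta cells lie below 0, with Nr4a1 and Btg2 nearest to it, and the differences between the beta cell fractions lie between -0.17 and 0.72.

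The second comparison asked whether the beta cell fractions differed. None of the members passed the thresholds in edgeR's quasi-likelihood test, 0 of 9 in each direction, against 0.0459% of tested genes higher and 0% lower in the positive-labelled libraries. DESeq2 also called 0. At an unadjusted p below 0.05, 5 members were higher in the positive-labelled libraries, where 4.82% of tested genes were, namely *Fos*, *Fosb*, *Jun*, *Egr1* and *Dusp1*, and 0 were lower, where 0.746% were. The median log2 fold change of the 9 members was 0.39, against 0.05 over all genes.

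*Fosb* was 1.48-fold higher, a log2 fold change of 0.57 with a 95% interval of 0.26 to 0.87 (edgeR quasi-likelihood test, Benjamini-Hochberg adjusted p = 0.302). *Jun* was at 0.55 (0.23 to 0.87), *Fos* at 0.72 (0.13 to 1.30), *Egr1* at 0.63 (0.14 to 1.12) and *Dusp1* at 0.39 (0.03 to 0.74). The intervals of *Junb* (-0.04 to 0.38), *Ier2* (-0.08 to 0.39) and *Btg2* (-0.30 to 0.38) lay on both sides of 0, and that of *Nr4a1* was wide (-0.88 to 0.54). The members thus divided into those with an interval above 0 and those with an interval across it, but none held after adjustment over all genes.

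Within mice, *Fos*, *Fosb*, *Jun*, *Junb* and *Egr1* were higher in the positive-labelled library in 4 of 4 mice, *Ier2*, *Btg2* and *Dusp1* in 3 and *Nr4a1* in 2. The share of all tested genes that were higher there in 4 of 4 mice was not computed, so these counts only describe the members. Over all tested genes the direction was also uneven, with 4.82% higher and 0.746% lower at an unadjusted p below 0.05 in the edgeR test. The ratio for *Fos* was 3.44 in mouse 2 and 1.40, 1.48 and 1.21 in mice 1, 3 and 4, and that for *Egr1* was 2.67 in mouse 2 and 1.42, 1.33 and 1.30 in the others. Mouse 2, whose negative-labelled library had the lowest *Fos* of all 11, thus gave the largest ratio of both. That library also stood apart in composition, with 34.4% of its counts from *Ins1* and *Ins2* against 17.8% to 26.9% in the other beta cell libraries, 0.669% from mitochondrial genes against 1.35% to 2.55%, and the lowest TMM factor at 0.870. Without mouse 2 the log2 fold change was 0.44 for *Fos* and 0.43 for *Egr1*, and the part of this composition in the difference was not tested. Markers of non-beta islet cells moved in the same direction. The alpha markers amounted to 1.64% to 3.31% of the mouse's own non-beta level in the positive-labelled libraries and to 0.925% to 1.66% in the negative-labelled ones, and the delta markers to 15.3% to 27.9% and 6.29% to 7.88%. All 5 alpha, 3 delta and 2 pancreatic polypeptide markers were detected in each beta cell library, and *Rbp4*, *Ppy* and *Pyy* were called higher in the positive-labelled libraries. In mice 1 to 3 the summed members reached at most 12.8% of the mouse's own non-beta level in the positive-labelled libraries and 8.48% to 11.0% in the negative-labelled ones. The part of these cells in the difference was not tested.

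The third comparison asked how far the mice differed once the fraction was allowed for. In the F test of the mouse terms of the edgeR quasi-likelihood fit, 8 of 9 members differed between mice at a Benjamini-Hochberg adjusted p below 0.01, against 4.08% of tested genes. The exception was *Nr4a1*, with an adjusted p of 0.0606 in this test and of 0.000147 in the fit of the 8 beta cell libraries alone, in which all 9 were called. The range between the highest and lowest mouse had a median of 3.81 on the log2 scale over the members and of 0.66 over all tested genes. It was 4.79 for *Fosb* (adjusted p = 1.70e-06 in the edgeR test), which had the third smallest p of all genes tested, 4.05 for *Jun*, 4.04 for *Egr1*, 3.85 for *Fos* and 3.81 for *Dusp1*. *Junb* and *Ier2* ranged over 2.95 and 2.88, and *Nr4a1* and *Btg2* over 1.82 and 1.81.

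Mouse 4 carried this result. It was the highest of the 4 mice for 9 of 9 members in each beta cell fraction, as it was for 31.1% and 30.9% of all tested genes, and stood at 2.89 to 18.8 times the mean of mice 1 to 3 in the positive-labelled libraries and 2.26 to 20.1 times in the negative-labelled ones. The positive-labelled library of mouse 4 exceeded the lowest non-beta library for 5 members, and the negative-labelled one for 4. Without mouse 4, 0 of 9 members were called between mice, where 0.0828% of tested genes were, and 8 were at an unadjusted p below 0.05, where 7.97% were. *Junb* came nearest, with an adjusted p of 0.0257 in the edgeR test.

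Among mice 1 to 3 the range was smaller and had an order. Its median was 1.05 on the log2 scale over the members and 0.34 over all genes, with *Egr1* at 1.51, *Dusp1* at 1.23 and *Btg2*, *Ier2* and *Nr4a1* at 0.60, 0.60 and 0.57. Of the 27 combinations of a member with a fraction, mouse 1 was the highest of these 3 mice in 23 and mouse 2 the lowest in 22. All 9 members were highest in mouse 1 in non-beta cells. The exceptions for mouse 1 were *Nr4a1* and *Btg2*, whose beta cell libraries were highest in mouse 2 and mouse 3 respectively. The 27 combinations share the same libraries and are not independent. The share of all tested genes with this order of mice was not computed.

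**Figure D3:**
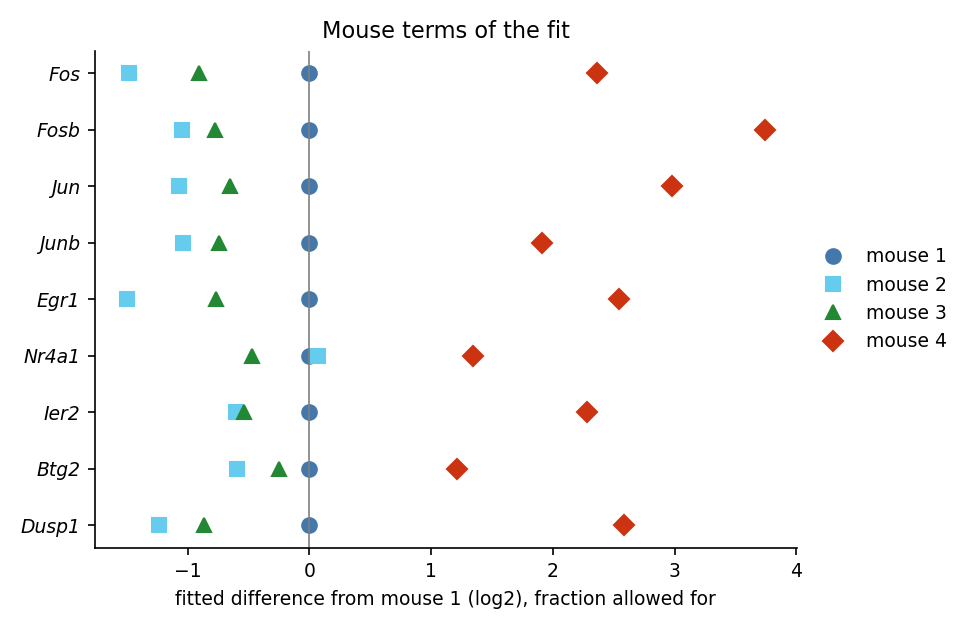
Fitted difference of each mouse from mouse 1 on the log2 scale, with the fraction allowed for, for each member. Mouse 4 lies 1.21 (Btg2) to 3.74 (Fosb) above mouse 1, while mouse 3 lies below mouse 1 in all 9 genes and mouse 2 in all but Nr4a1.

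The spread of log2 CPM was then divided between fraction and mouse in layouts in which every mouse had every fraction. In the 9 libraries of mice 1 to 3, the fraction held a median of 92.2% of the sum of squares of the members, the mouse 6.36% and the remainder 1.08%, against 61.4%, 9.28% and 19.1% over all tested genes. *Ier2* had the largest share for the fraction at 96.6%, followed by *Fosb* at 94.0% and *Junb* at 93.4%. *Nr4a1* had the smallest at 75.3%, with 20.1% in the remainder, and its order of mice differed between fractions. In *Btg2* the fraction held 80.1%, the mouse 11.3% and the remainder 8.56%.

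In the 8 beta cell libraries of the 4 mice the shares were turned round. The mouse held a median of 96.9% over the members and the fraction 1.70%, against 63.1% and 5.60% over all genes, with a mouse share from 91.0% for *Fos* to 99.8% for *Btg2*. The total SD of the members had a median of 1.66 on the log2 scale, against 0.36 over all genes. In the 6 beta cell libraries of mice 1 to 3 the mouse still held 79.4% and the fraction 11.6%, at a median SD of 0.62, against 40.1%, 12.5% and 0.29 over all genes. The fraction's share was thus no larger in the members than over all genes. Among the members the fraction held most in *Fosb* at 27.4%, *Jun* at 26.5% and *Fos* at 22.7%, and least in *Btg2* at 0.370%. Between replicates of 1 fraction in mice 1 to 3, the members' median SD of log2 CPM was 0.53 and 0.56 in the positive- and negative-labelled libraries and 0.43 in non-beta cells, against 0.20, 0.28 and 0.26 over all genes.

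**Figure D4:**
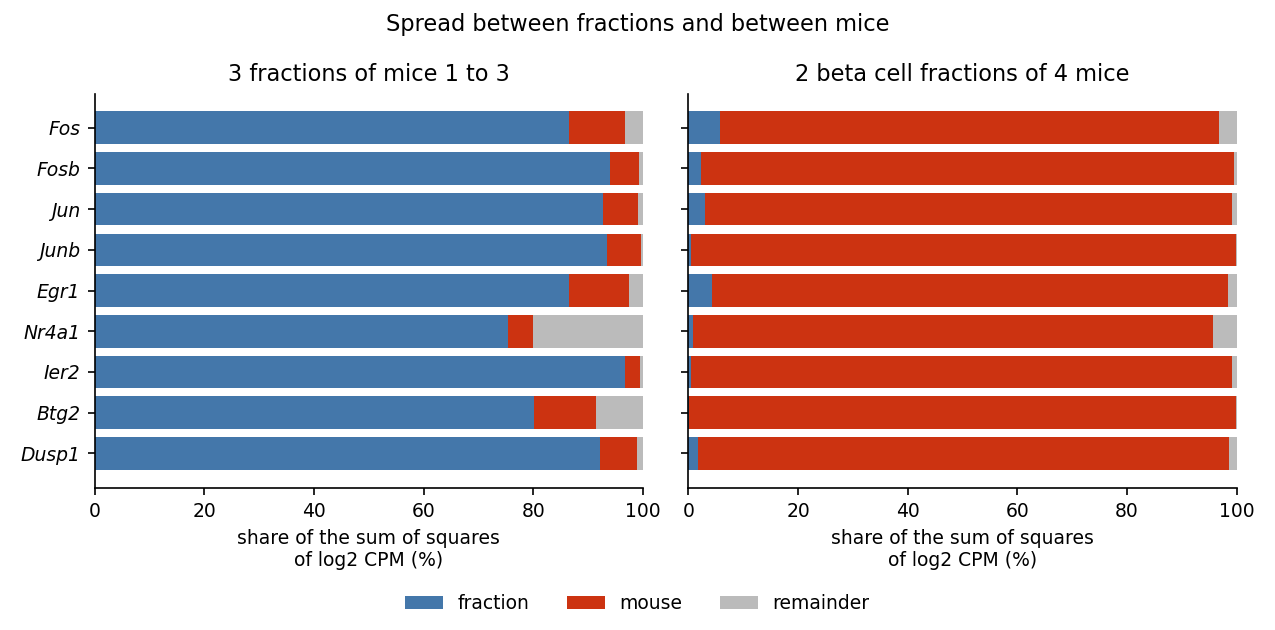
Share of the sum of squares of log2 CPM, in percent, that lies between fractions, between mice and in the remainder for each member, in the 9 libraries of mice 1 to 3 (left) and the 8 beta cell libraries of 4 mice (right). The fraction holds 75.3% to 96.6% on the left, and the mouse 91.0% to 99.8% on the right.

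Other genes of the same pathway were read in lists by role. Like the members, the lists were chosen with earlier results of these data known, so their counts are a description. Of all tested genes, 4.08% were called between mice. Of 19 further early transcription factors 10 differed between mice, with mouse 4 above the mean of the others in all 10, and the median shift of mouse 4 over the list was 1.94 on the log2 scale, against 0.02 over all genes. *Klf6*, a zinc finger factor, was at 71.3 and 62.8 CPM in the positive- and negative-labelled libraries of mouse 4, against 13.1 to 22.2 CPM in the other beta cell libraries. *Npas4*, a factor induced by calcium entry, was at 64.5 and 52.8 CPM against 1.37 to 7.92, and *Atf3*, a stress-induced member of the ATF family, at 25.2 and 14.0 against 0 to 1.83. *Jund*, an AP-1 subunit with a high basal level, shifted by 0.75 only on the log2 scale (adjusted p = 0.00271 in the edgeR test).

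Of 20 further early effectors 6 differed between mice, all higher in mouse 4, with a list median of 0.36. *Arc*, a synaptic early gene, shifted by 4.35 and was at 67.0 and 48.6 CPM in mouse 4 against 0.944 to 6.04 in the other beta cell libraries. *Rgs2*, which limits G protein signals, was at 377 and 381 CPM against 50.8 to 129, while *Rhob* and *Gadd45b* shifted by 1.10 and 1.11. Of 19 feedback inhibitors 2 were called, *Zfp36*, which destabilises early gene mRNAs, at 1.86, and *Btg1*, the relative of *Btg2*, at 1.11. The list median was -0.11. The summed list was at 635 and 591 CPM in mouse 4, against 407 to 497 CPM in the other beta cell libraries. Of 33 upstream kinases and factors, 2 were called between mice, with a median of -0.12. Without mouse 4, 0 genes of these 4 lists were called between mice.

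Against non-beta cells, 13 and 12 of the 19 transcription factors were lower in the positive- and negative-labelled libraries, as were 13 and 13 of the 20 effectors and 12 and 12 of the 19 inhibitors, where 15.5% and 17.1% of tested genes were lower. The kinase *Plk3* went the other way at 2.74 and 2.90 on the log2 scale, and so did the phosphatase *Dusp4* at 1.76 and 1.95. Of the upstream list 1 gene was lower in either fraction, *Rps6ka1*, and 3 were higher, where 6.13% and 6.18% of tested genes were. The 3 were *Rps6ka2*, *Araf* and *Braf*, with list medians of -0.12 and -0.14. Thus the early genes of the response were mostly lower in beta cells, and the kinases above them mostly were not called.

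Further lists moved with mouse 4. The 4 nuclear long RNAs *Malat1*, *Neat1*, *Meg3* and *Kcnq1ot1* summed to 3624 and 3013 CPM in its positive- and negative-labelled libraries, against 81.5 to 151 CPM in the other beta cell libraries and 103 to 167 CPM in non-beta cells, and 4 of 4 were called between mice. Of 12 heat shock genes, 7 were called, and their sum was 4059 and 3990 CPM against 2193 to 2642. *Hspa1b*, an inducible chaperone, was at 210 and 217 CPM in mouse 4 and at 7.95 to 23.3 CPM in the other beta cell libraries. *Dnajb1*, *Dnaja1* and *Hspa1a* shifted by 2.44, 1.40 and 3.36. *Ins1* and *Ins2* together took 18.0% and 17.8% of the counts of mouse 4 and 24.0% to 34.4% of those of the other beta cell libraries. The part of RNA composition or handling in the members' levels in mouse 4 was not tested, and mouse, preparation and sort cannot be told apart.

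Markers of other cells in mouse 4 lay within or below the range of mice 1 to 3 in the same fraction, with 1 exception. The alpha markers summed to 3110 CPM in the positive-labelled library against 2817 to 4075, and to 1670 CPM in the negative-labelled one against 1586 to 2486. The delta markers were at 1400 CPM against 1919 to 2487 and at 693 CPM against 543 to 1046, and the pancreatic polypeptide markers at 300 CPM against 319 to 421 and at 138 CPM against 89.0 to 159. The endothelial markers were at 6.97 and 5.82 CPM, with 1 and 3 of 6 at 0, and were at 6.09 to 12.6 CPM in the other beta cell libraries. Endocrine and vascular markers were thus not above the other mice. The leukocyte markers were at 49.7 and 56.5 CPM against 50.7 to 89.3 over both fractions, the stromal markers at 0.822 and 1.04 CPM against 0.0609 to 4.69, and the 4 ductal markers at 229 and 228 CPM against 214 to 275. The exception was the acinar list, at 8.27 CPM in the positive-labelled library against 89.3 to 1999, but at 424 CPM in the negative-labelled one against 44.9 to 164. Of all these lists 1 gene, *Spp1*, differed between mice, and it was lower in mouse 4. None of the 7 beta cell markers was called, with a median shift of -0.51. The summed members were at 3698 and 3023 CPM in mouse 4, against 3386 to 5909 CPM in non-beta cells.

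**Figure D5:**
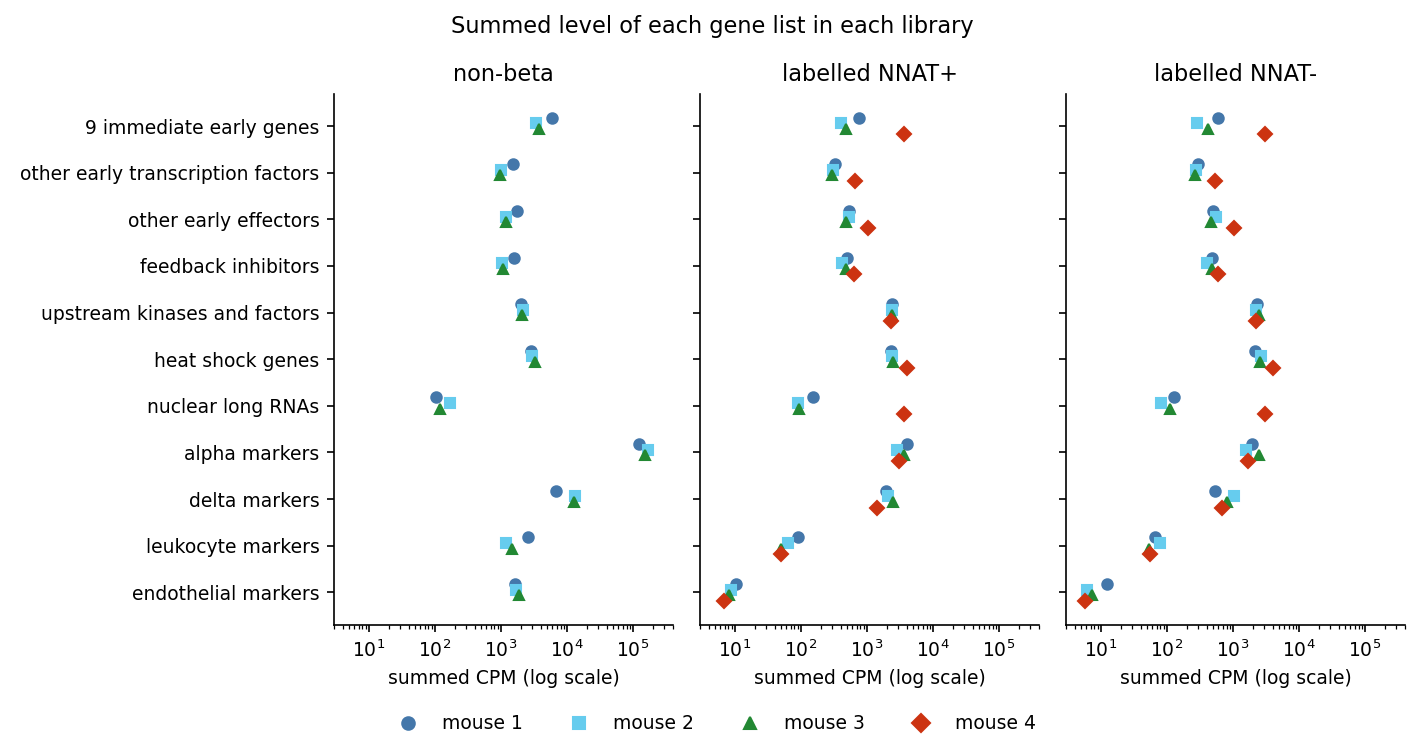
Summed CPM on a log axis of the 9 members and of 10 other gene lists, with 1 panel per fraction and 1 point per library, coloured by mouse. Mouse 4 lies above the other beta cell libraries in the members, the other early transcription factors and effectors, the feedback inhibitors, the heat shock genes and the nuclear long RNAs. Of the 19 feedback inhibitors only 2 were called between mice, and the median shift of mouse 4 over that list was -0.11 on the log2 scale. In the alpha, delta, leukocyte and endothelial marker lists it lies with or below the same fraction of the other mice.

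The members varied together across libraries once each fraction's mean was removed. The pairwise Pearson r over the 11 libraries was between 0.881 and 0.996 for the 28 pairs without *Nr4a1*, and between 0.543 and 0.809 for the 8 pairs with it. In the 9 libraries of mice 1 to 3 the same pairs ranged from 0.490 to 0.989 and from -0.403 to 0.408. Libraries of 1 mouse share their preparation, and the contrast of mouse 4 with the rest sets much of the first values, so they are given as a description.

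The genes outside the members that followed their mean most closely, over the 11 libraries and among genes with a mean of at least 5 CPM, were *Btg1* (r = 0.997), *Nfkbiz* (0.992), *Klf6* (0.992), *Pkd1* (0.986), *Zfp36* (0.985), *Fkbp14* (0.984), *Gadd45b* (0.984), *Arc* (0.982), *Trim68* (0.982) and *Relch* (0.982). Among them *Btg1*, *Klf6*, *Zfp36*, *Gadd45b* and *Arc* belonged to the lists of early genes above. Those lists were chosen with earlier results of these data known. The 8 beta cell libraries alone gave 4 of these 10 among their own first 10. Of the members, *Fosb* lay nearest to the common pattern at 0.995 and *Nr4a1* farthest at 0.762.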

How the data were processed

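RNA was taken from FACS-sorted islet cells of 4 mice, and poly(A)-selected, strand-keeping libraries were sequenced as paired reads. Alignment by the authors was to mm10, with STAR 2.7.1a, which also counted reads per gene on gencode annotation, and the deposited values are whole-number counts without normalisation. The strand column used is not given in the sources used here. Per the labels, DESeq2 1.32.0 was among the authors' tools. Total counts per library were 30420352 to 43238376, and 0 of 55 pairs of libraries were identical.

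In R 4.3.3, edgeR 4.0.16 was used for filtering (filterByExpr by fraction, 17424 of 55401 genes kept), TMM scaling and quasi-likelihood tests. All 11 libraries entered 1 fit with fraction and mouse as terms, with Benjamini-Hochberg adjustment over the tested genes. The threshold was an adjusted p under 0.01, with a change over 2-fold between fractions and any change between mice. The SE is the fold change on the log2 scale over the root of F. CPM are per TMM-scaled library size, and logs were taken with a prior count of 2. The tests were checked on simulated counts. Same-numbered libraries came from the same mouse, and their residuals from the means of the beta cell fractions had a mean correlation of 0.314 (4 pairs) against -0.103 between mice (12 pairs). The sums of squares and correlations carry no test.

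Gene coordinates and exon lengths were those of gencode release vM21 on GRCm38, the build of mm10, with 55141 identifiers matched without version, and promoter sequences those of RefSeq on GRCm38.p6. From each gene list, at most 4 genes with the smallest p in each direction were named. The values of genes among the upstream kinases that were called between mice are not reported here. The likeness list holds the 10 genes with the highest r. The members and lists were chosen with earlier results of these data known. Alternatives covered the normalisation, the 10 most abundant genes, the filter, DESeq2 1.42.0, the threshold, the mouse block, the libraries in the fit, and each mouse left out.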

Additional observations from a re-analysis of the deposited data

Results flagged for a closer look

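In groups of 4 libraries, a library was marked where its gap to the nearest other library, as a share of the group's whole range in CPM, passed the 95% critical value of Dixon's test for 4 values. This was so for 15 of the 18 combinations of a member with a beta cell fraction, in each case with mouse 4 as the high library. The critical value marks about 1 in 20 groups only for normally distributed values in groups chosen beforehand. The members were chosen with earlier results of these data known, so that rate is no measure for the 15. The combinations share the same 2 libraries of mouse 4 and are not independent. How many of all tested genes would be marked in this way was not computed. Mouse 4 was the highest of the 4 mice for 31.1% of them in the positive-labelled libraries and for 30.9% in the negative-labelled ones.

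In the positive-labelled libraries the share was 0.840 for *Fos*, 0.953 for *Fosb*, 0.920 for *Jun*, 0.874 for *Junb*, 0.861 for *Egr1*, 0.916 for *Ier2*, 0.872 for *Btg2* and 0.869 for *Dusp1*. In the negative-labelled ones it was 0.964 for *Fosb*, 0.909 for *Jun*, 0.856 for *Junb*, 0.847 for *Egr1*, 0.933 for *Ier2*, 0.846 for *Btg2* and 0.884 for *Dusp1*. *Fos* in the negative-labelled libraries and *Nr4a1* in both fractions were not marked. The non-beta cells, with 3 libraries, were not examined in this way.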

How the results depend on the processing

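Under size factors by RLE, without the 10 most abundant genes, without a filter, with DESeq2 and at an adjusted p below 0.05, the number of members called was 9 and 9 against non-beta cells, 0 between the beta cell fractions and 8 or 9 between mice. With no replicate block, 0 members were called in the comparison of the positive-labelled libraries with non-beta cells and 0 in that of the negative-labelled libraries. With no replicate block and mouse 4 left out, a setting chosen after seeing the data, 9 and 9 were called. Leaving out each mouse in turn gave 8 to 9 and 9 to 9 members against non-beta cells and 0 to 9 between mice, the 0 without mouse 4. The 8 came without mouse 1, where *Btg2* fell under 2-fold (-0.995 on the log2 scale). The fit of only the compared libraries lost *Nr4a1* in the negative-labelled libraries (adjusted p = 0.0193 by edgeR). The mouse share of the spread, 6.36% in mice 1 to 3, was 1.47% to 9.27% without 1 mouse and 96.9% in the 8 beta cell libraries of 4 mice. The latter was 79.4% to 98.3% without 1 mouse, lowest without mouse 4. The likeness list of 10 kept 4 in the 8 beta cell libraries. *Btg2* reversed its small difference between the beta cell fractions without mouse 4 (-0.0176 with no replicate block), and leaving out each mouse in turn gave -0.0154 to 0.0605. The cause of these changes was not tested beyond what leaving out mouse 4 shows. Over all genes, calls between mice were 711 in the fit reported, 3525 with DESeq2, 1253 without a filter, 2046 at an adjusted p below 0.05, 1633 in the 8 beta cell libraries, 412 without mouse 3 and 14 without mouse 4. Calls between the beta cell fractions were 8, and 86 with DESeq2, 26 without a filter, 16 at an adjusted p below 0.05, 1 with no replicate block and 0 to 5 without 1 mouse. With 3 non-beta libraries and none from mouse 4, the level of the members in the non-beta cells of mouse 4 is not known here.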
